A study of Homo sapiens with 7 samples.

Results

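The soluble ectodomain of PTK7 was set against the membrane fragment that its cleavage leaves behind, by comparing the transcripts of HT1080 cells that expressed the soluble fragment (sPTK7 cells) with those of HT1080 cells that expressed the C-terminal fragment (cPTK7/622-1070 cells). PTK7 is a receptor-like protein with immunoglobulin-like domains outside the cell, a membrane-spanning segment and a kinase domain without catalytic activity. It takes part in planar cell polarity and Wnt signaling, which orient cells in a sheet and steer their movement. The membrane protease MT1-MMP cuts the ectodomain, which yields the soluble N-terminal product sPTK7 and a C-terminal product that stays in the membrane, and ADAM proteases with gamma-secretase release a shorter piece into the cell.

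HT1080 is a human fibrosarcoma line, invasive in culture, with much active MT1-MMP and little PTK7 of its own. sPTK7 cells carried a stably transfected construct of the N-terminal ectodomain with a FLAG tag, and cPTK7/622-1070 cells a construct that starts at residue 622 and runs to residue 1070, with the membrane segment, the inert kinase domain and a V5-HIS tag. The constructs overlap over the last immunoglobulin-like domain, and both lines kept the PTK7 gene of HT1080 cells. The study names its HT1080 control the parental line, while the records give a scrambled construct for it. Whether each construct line was a pool or a clone is not given in the sources used here. All lines were grown for 72 h in medium with serum, and each was measured on 1 Illumina HumanHT-12 v4 BeadChip array, whose oligonucleotide probes read transcripts as bead signals.

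Every gene with a detection p under 0.05 on either of both arrays was compared, the detection p being the share of negative control probes at least as bright. This gave 11907 genes of the 13589 detected on any of the 7 arrays of the series and of 20045 with a probe. Of these, 10365 were detected in both lines, 661 in sPTK7 cells alone and 881 in cPTK7/622-1070 cells alone. At the edge of detection, ZNF764 was just inside with a detection p of 0.0494 in sPTK7 cells, and DDI1 just outside with 0.0506. Signals are given as normalized linear signals, and a signal under an array's lowest detected one (59.4 in sPTK7 cells, 57.2 in cPTK7/622-1070 cells and 55.7 in HT1080 cells) was raised to that floor. A fold against an undetected gene is therefore a lower bound, written as "at least". No line was replicated, so no difference has a p or an error, and precision is limited by the single array of each line.

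Across the series 19045 to 20515 probes were detected per array, 19304 in sPTK7 cells, 19748 in cPTK7/622-1070 cells and 20059 in HT1080 cells. Of 13 mesenchymal and fibrosarcoma markers, 10 were detected in sPTK7 cells and 11 in cPTK7/622-1070 and in HT1080 cells. THY1 and NT5E were undetected in all of these lines. Of 12 epithelial markers, 3 were detected in sPTK7 cells and 2 in cPTK7/622-1070 and HT1080 cells, with summed signals of 2650 in sPTK7 cells, 3810 in cPTK7/622-1070 cells and 3584 in HT1080 cells, and CDH1 was undetected in each. Of 7 leukocyte and blood markers 3 were detected in each of these lines (CD14, LYZ and CD68), with PTPRC undetected and summed signals of 9573 in sPTK7 cells, 7263 in cPTK7/622-1070 cells and 4254 in HT1080 cells. None of 10 endothelial markers was detected.

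PTK7 itself was not detected by either of its probes in sPTK7 or in cPTK7/622-1070 cells, so it was not among the genes compared. Its brighter probe had a detection p of 0.686 in sPTK7 cells, 0.253 in cPTK7/622-1070 cells and 0.00520 in HT1080 cells. In PTK7 cells of the series, which express the full-length protein, this probe read 112, near the 104 of HT1080 cells. Cells with the mutant Chz form read 137. The other probe lay at the floor in PTK7 cells, so neither probe clearly registered the full-length construct. Whether these probes lie within the constructs is not known here, so they do not check the labels.

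A total of 306 genes (2.57% of those tested) were at least 2-fold higher in sPTK7 than in cPTK7/622-1070 cells, and 259 (2.18%) were at least 2-fold lower. The 565 genes together were 4.75% of those tested. The median log2 difference of all genes was -0.01, with the 5th percentile at -0.68 and the 95th at 0.74, and 85.2% of genes lay within 1.5-fold. The median fold of the called genes was 2.39 for those higher in sPTK7 cells and 2.60 for those lower. Differences of at least 8-fold were found for 15 higher and 29 lower genes. The gene was undetected on the dimmer array for 74 of the higher and 100 of the lower genes. The called genes were mostly dim, with 398 (70.4%) of them among the dimmest 40% of genes and 19 among the brightest 20%. By direction, 54.2% of the calls were higher in sPTK7 cells. From non-normalized signals with a floor of 200 the share was 34.2%, 66 higher against 127 lower, and at a fold of 3 it was 44.0%.

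**Figure D1:**
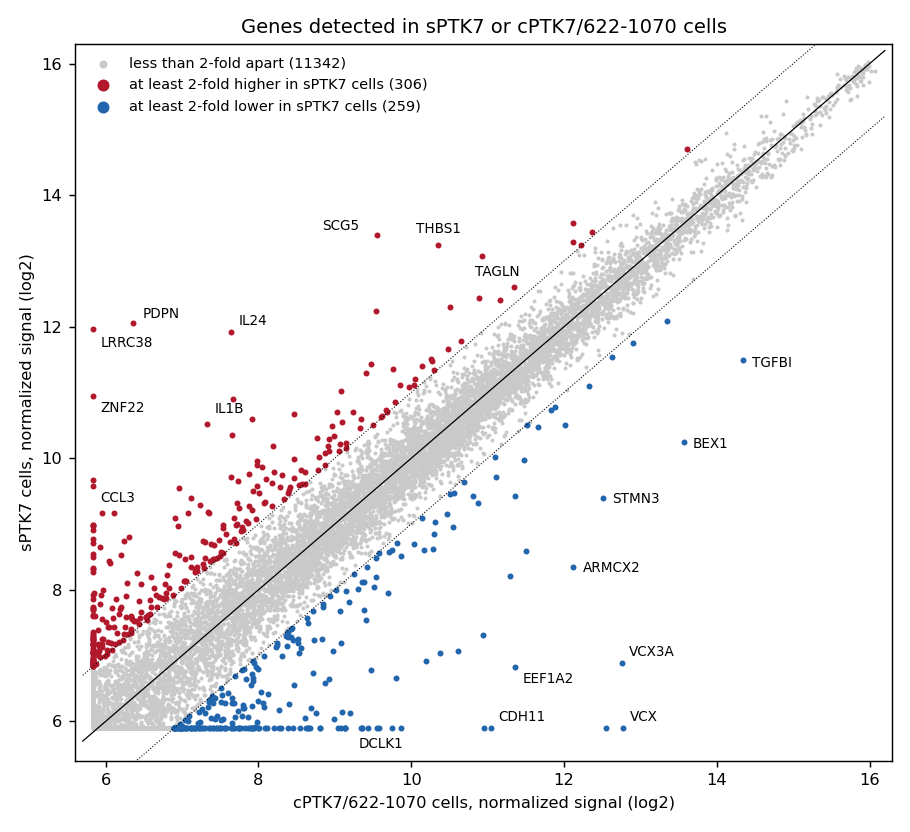
Normalized log2 signal of each of 11907 genes in sPTK7 cells (vertical axis) against cPTK7/622-1070 cells (horizontal axis), with 1 array per line; the solid line marks equal signal and the dotted lines 2-fold. The 306 red genes were at least 2-fold higher and the 259 blue genes at least 2-fold lower in sPTK7 cells, and the rows along the lower and left edges are genes at the detection floor of an array.

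The genes farthest apart in the direction of sPTK7 cells encoded surface proteins, a zinc finger protein, cytokines, a secretory chaperone and a formin. LRRC38, which encodes an auxiliary subunit of potassium channels, read 4006 in sPTK7 cells and was undetected in cPTK7/622-1070 and HT1080 cells, at least 70.1-fold higher. PDPN is the gene of podoplanin, a mucin-type membrane protein that binds ezrin and acts on RhoA in migrating cells. It read 4243 in sPTK7 cells, 82.3 in cPTK7/622-1070 cells and 144 in HT1080 cells. This was 51.6-fold higher in sPTK7 than in cPTK7/622-1070 cells. A further PDPN probe was undetected in sPTK7, cPTK7/622-1070 and HT1080 cells. ZNF22, a zinc finger gene, read 1975 in sPTK7 cells and was undetected in cPTK7/622-1070 and HT1080 cells, at least 34.5-fold higher, and its other probe was 30.3-fold apart the same way. Of sPTK7 and cPTK7/622-1070 cells, only sPTK7 cells stood away from the control in these 3 genes, and ZNF22 was also detected in Chz cells, at 905. Promoters of LRRC38 and PDPN lie near each other on chromosome 1, starting at chr1:13513954 and chr1:13583507. Their differences may therefore not be separate. SCG5, whose product 7B2 is a chaperone of a prohormone convertase, read 10729 in sPTK7 cells, 749 in cPTK7/622-1070 cells and 2362 in HT1080 cells, 14.3-fold higher. Here the control lay between both lines. FMN2, which encodes a formin that nucleates actin filaments, was 9.35-fold higher at 1905 in sPTK7 cells against 204 in cPTK7/622-1070 cells.

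The genes farthest apart in the other direction were led by a family of cancer/testis antigens on chromosome X. VCX was undetected in sPTK7 cells and read 6977 in cPTK7/622-1070 cells and 2031 in HT1080 cells, at least 117-fold lower. VCX3B, undetected in sPTK7 cells against 5970 in cPTK7/622-1070 cells, was at least 100.5-fold lower, VCX3A 58.2-fold (119 against 6905) and VCX2 12.3-fold (159 against 1958). These genes are near-identical copies, so their probes may share transcripts and may not be separate differences. CDH11, the gene of the mesenchymal cadherin OB-cadherin, was undetected in sPTK7 cells and read 2121 in cPTK7/622-1070 cells and 449 in HT1080 cells, at least 35.7-fold lower. TMSB15A, a thymosin beta that binds actin monomers, was undetected in sPTK7 cells and read 1986 in cPTK7/622-1070 cells and 1979 in HT1080 cells, at least 33.4-fold lower. Signals of CDH11 were raised above the control in cPTK7/622-1070 cells, whereas those of TMSB15A were near it. EEF1A2, a translation elongation factor of muscle and neurons, was 23.2-fold lower, with 114 in sPTK7 cells, 2635 in cPTK7/622-1070 cells and 4249 in HT1080 cells. CA12, a membrane carbonic anhydrase, was at least 15.7-fold lower, undetected in sPTK7 cells against 934 in cPTK7/622-1070 cells, and DMKN, a secreted protein of the epidermis, at least 14.4-fold, undetected against 859.

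**Figure D2:**
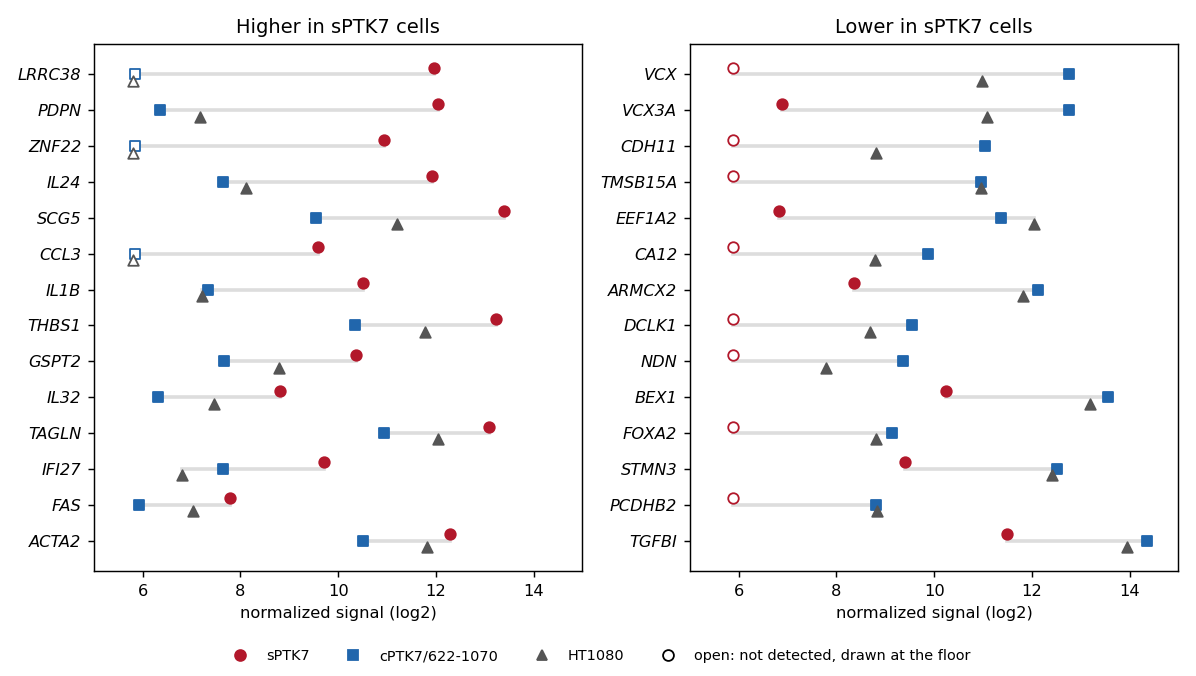
Normalized log2 signal (horizontal axis) of 14 genes called higher and 14 called lower in sPTK7 cells, with a red circle for sPTK7, a blue square for cPTK7/622-1070 and a grey triangle for HT1080 cells, each from 1 array. Open symbols are undetected and drawn at the floor; for SCG5, THBS1, VCX and CDH11 the control lies between both lines, and for TMSB15A, PCDHB2 and STMN3 it lies at the cPTK7/622-1070 signal.

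Both lines were next set beside the HT1080 array, which they share, to see which of them stood away from it. Against HT1080 cells, 500 genes (4.16% of 12006) were called in sPTK7 cells, 250 in each direction, that is 2.08% higher and 2.08% lower, and 196 (1.63% of 12007) in cPTK7/622-1070 cells, 94 higher (0.783%) and 102 lower (0.85%). Of the 306 genes higher in sPTK7 than in cPTK7/622-1070 cells, 146 (47.7%) were at least 2-fold from HT1080 cells in sPTK7 cells alone and 28 (9.15%) in cPTK7/622-1070 cells alone. Of the 259 lower genes, 121 (46.7%) were so in sPTK7 cells alone and 29 (11.2%) in cPTK7/622-1070 cells alone. A further 121 higher and 90 lower genes were within 2-fold of the control in both lines, and 6 higher and 13 lower genes were past it on opposite sides. STMN3, a stathmin that acts on microtubules, is a case of the first kind, with 677 in sPTK7 cells against 5843 in cPTK7/622-1070 and 5472 in HT1080 cells. ACTA2, the smooth muscle actin gene, is a case of the second, with 5020 in sPTK7 cells, 1462 in cPTK7/622-1070 cells and 3611 in HT1080 cells.

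Cytokine genes were the list with the largest share of members called higher in sPTK7 cells among the lists drawn in the plot of gene lists. Of 22 detected genes of interleukin 1, NF-kB and cytokines, 8 were higher and 1 lower, with a median log2 difference of 0.56 (all genes -0.01) and 16 of 22 above 0, against 48.4% of all genes. IL24, a cytokine of the interleukin 10 family, read 3887 in sPTK7 cells, 199 in cPTK7/622-1070 cells and 276 in HT1080 cells, 19.5-fold higher, and its other probe was 8.50-fold apart. IL1B, the gene of interleukin 1 beta, which activates NF-kB in cells that bear its receptor, read 1466 in sPTK7 cells, 161 in cPTK7/622-1070 cells and 148 in HT1080 cells, 9.12-fold higher. cPTK7/622-1070 cells were thus near the control for IL1B. CCL3, a chemokine for monocytes, read 764 in sPTK7 cells and was undetected in cPTK7/622-1070 and HT1080 cells, at least 13.4-fold higher, and its near-identical copies CCL3L3 (at least 14.2-fold) and CCL3L1 (9.31-fold) may share its transcripts. CCL20, another chemokine, was 5.99-fold higher, with 749 in sPTK7 cells against 125 in cPTK7/622-1070 cells. RELB and NFKB2, the subunits of the noncanonical NF-kB dimer, read 194 and 260 in sPTK7 cells against 57.7 and 99.3 in cPTK7/622-1070 cells. IL32, a cytokine of activated cells, was 5.67-fold higher at 447 in sPTK7 cells, 79.0 in cPTK7/622-1070 cells and 177 in HT1080 cells. The lower member was IL11, a cytokine that signals through gp130, with 388 in sPTK7 cells against 858 in cPTK7/622-1070 cells, and it was not called in the authors' normalized table, where 6 were higher. IL6 and CXCL8 were not called, with log2 differences of 0.54 and 0.59.

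Genes that interferons induce read mostly higher in sPTK7 cells. Interferons act through STAT and IRF factors that bind a short promoter element, and their targets block viruses and raise antigen presentation. Of 35 detected interferon-stimulated genes, 6 were at least 2-fold higher and none lower, 27 lay above 0, and the median log2 difference was 0.40. IFI27, a small membrane protein, read 838 in sPTK7 cells, 200 in cPTK7/622-1070 cells and 112 in HT1080 cells, 4.19-fold higher. HERC6, a ubiquitin ligase, was 3.03-fold higher (769 against 253), and IFI44 was 2.88-fold higher (1438 against 499.9). IFITM1, a membrane protein that hinders virus entry, read 862 in sPTK7 cells, 317 in cPTK7/622-1070 cells and 340 in HT1080 cells, 2.72-fold higher. In HT1080 cells HERC6, IFI44 and IFITM1 were within 1.5-fold of cPTK7/622-1070 cells. The remaining called members were MX1, a GTPase that blocks viral replication, at 128 in sPTK7 cells against 63.9 in cPTK7/622-1070 cells, and PSMB8. Members without a call included OAS1 (123 against 159) and IFIT1 (301 against 228).

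Promoters are shown here because 8 of 11 promoters of the 6 interferon-stimulated genes called higher (72.7%) hold the letters of the element. The interferon response element was searched as GAAA, any 2 bases and GAAA again, on both strands of RefSeq promoters of GRCh38.p14, which run from 250 bases before to 50 bases after each gene start. It was found in 25 of 43 promoters of the interferon-stimulated genes tested (58.1%), in 29 of 347 promoters of genes higher in sPTK7 cells (8.36%), in 4 of 287 of genes lower (1.39%) and in 408 of 13792 of all genes tested (2.96%). These promoters belong to 32, 228, 191 and 9517 genes in turn, and the genes higher include the interferon-stimulated ones called. Promoters of 1 gene can overlap, as in IFI44 and IFI27, so 1 element can be counted more than once. A match is a description of the letters, not of a bound site. The promoters below lie at chr1:78649539-78649838, chr14:94110486-94110785 and chr11:313790-314089, all on the + strand, and capitals mark the element, which in IFI27 and IFITM1 occurs at 2 positions that do not overlap.
IFI44: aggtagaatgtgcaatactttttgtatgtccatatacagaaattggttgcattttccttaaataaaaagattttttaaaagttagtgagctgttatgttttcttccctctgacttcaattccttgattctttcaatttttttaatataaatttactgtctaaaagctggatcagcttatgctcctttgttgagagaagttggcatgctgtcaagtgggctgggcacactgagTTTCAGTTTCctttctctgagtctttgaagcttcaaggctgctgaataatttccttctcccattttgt
IFI27: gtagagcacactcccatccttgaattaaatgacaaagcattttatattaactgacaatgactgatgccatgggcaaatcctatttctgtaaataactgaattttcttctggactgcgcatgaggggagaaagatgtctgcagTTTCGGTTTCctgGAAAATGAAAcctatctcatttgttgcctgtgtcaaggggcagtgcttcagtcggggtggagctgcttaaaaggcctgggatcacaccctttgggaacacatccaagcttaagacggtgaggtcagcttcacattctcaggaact
IFITM1: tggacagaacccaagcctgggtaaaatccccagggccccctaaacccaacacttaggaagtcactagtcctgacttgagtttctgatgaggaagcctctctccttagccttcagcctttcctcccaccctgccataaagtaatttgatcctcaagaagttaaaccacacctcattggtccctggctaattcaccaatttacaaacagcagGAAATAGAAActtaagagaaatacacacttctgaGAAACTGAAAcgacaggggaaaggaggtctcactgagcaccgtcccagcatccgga
In IFI44 the element starts 18 bases before the gene start and is read on the opposite strand, as is the first copy in IFI27.

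Antigen presentation genes also read higher in sPTK7 cells. Of 18 detected genes of the MHC and antigen presentation, 4 were at least 2-fold higher and none lower, with a median log2 difference of 0.56. HLA-B, a class I chain that displays peptides, read 415 in sPTK7 cells, 167 in cPTK7/622-1070 cells and 493 in HT1080 cells, 2.49-fold higher, and HLA-C was at least 2.64-fold higher at 151 against undetected. For HLA-B it was cPTK7/622-1070 cells that stood away from the control. Class I genes resemble one another, so probes may read more than 1 of them. PSMB8, a catalytic subunit of the immunoproteasome, read 2164 in sPTK7 cells, 1000 in cPTK7/622-1070 cells and 1478 in HT1080 cells, and B2M, the light chain of class I molecules, read 23858 in sPTK7 cells against 13992 in cPTK7/622-1070 cells without reaching 2-fold. None of the 18 was called in the authors' normalized table, where the median was 0.47.

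Contractile genes controlled by SRF, the transcription factor that reads out free actin, mostly read higher in sPTK7 cells. Of 18 detected, 5 were at least 2-fold higher, none lower and 17 above 0, with a median log2 difference of 0.56. TAGLN, an actin-bundling protein of smooth muscle, read 8643 in sPTK7 cells, 1950 in cPTK7/622-1070 cells and 4197 in HT1080 cells, 4.43-fold higher, and its other probe was 4.42-fold apart. ACTA2 was 3.43-fold higher, MYL9, a myosin light chain, 2.21-fold (755 against 342), and ACTG2, the enteric actin, at least 2.52-fold (144 against undetected). MYH9, the heavy chain of nonmuscle myosin, was bright on every array, with 26658 in sPTK7 cells, 12482 in cPTK7/622-1070 cells and 12706 in HT1080 cells. TAGLN lay on opposite sides of the control in both lines, and MYH9 was away from it in sPTK7 cells only. The median of the list against HT1080 cells was 0.34 in sPTK7 cells and -0.19 in cPTK7/622-1070 cells. Called contractile genes numbered 3 in the authors' normalized table. Of 21 detected integrin and focal adhesion genes, 0 were called.

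Targets of YAP and TEAD, which respond to tension and cell spreading, and matrix genes held further differences. Of 19 detected YAP and TEAD targets, 3 were higher and none lower, with a median of 0.33. THBS1, the matricellular protein thrombospondin 1, read 9672 in sPTK7 cells, 1306 in cPTK7/622-1070 cells and 3519 in HT1080 cells, 7.41-fold higher. LATS2, the kinase that restrains YAP, was called higher (172 against 68.8), and EDN1, the gene of endothelin, 2.09-fold (773 against 371). Both of these read near the control in sPTK7 cells and below it in cPTK7/622-1070 cells. Of 33 matrix protein genes, 6 were higher and 2 lower, with a median of 0.08. TGFBI, a secreted protein that binds integrins and collagen, read 2897 in sPTK7 cells, 20834 in cPTK7/622-1070 cells and 15847 in HT1080 cells, 7.19-fold lower. COL8A1, a short-chain collagen, was called higher (886 against 296), COL18A1, the source of endostatin, at least 2.80-fold (160 against undetected), and the fibrillar collagen gene COL5A1 was at least 2.39-fold lower (undetected against 142). Only 1 YAP and TEAD target was called in the authors' normalized table, and of the matrix genes 2 were called higher there and 1 lower.

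Among 24 detected pericellular proteases and their inhibitors, 2 were higher and 1 lower. Of all genes tested 2.57% were higher and 2.18% lower, so so few calls say little about the list. MMP9, the gelatinase B gene, read 388 in sPTK7 cells, 1150 in cPTK7/622-1070 cells and 2093 in HT1080 cells, 2.96-fold lower. HTRA1, a secreted serine protease, read 2216 in sPTK7 cells, 924 in cPTK7/622-1070 cells and 943 in HT1080 cells, 2.40-fold higher, and SERPINB7, a serpin, was 2.03-fold higher (9724 against 4796) but not called in the authors' normalized table. MMP14, the gene of MT1-MMP that cuts PTK7, was not called, with 302 in sPTK7 cells against 192 in cPTK7/622-1070 cells. ADAM17, a sheddase that also acts on PTK7, read 983 in sPTK7 cells against 1138 in cPTK7/622-1070 cells.

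Calls among cadherin genes ran the other way. Cadherins hold neighboring cells together and catenins tie them to actin. Of 12 detected cadherins, protocadherins and catenins, none was higher and 4 were lower in sPTK7 cells, with a median of -0.20 and 2 above 0. All 12 were detected in cPTK7/622-1070 cells but only 6 in sPTK7 cells. Members detected in cPTK7/622-1070 cells alone, CDH11, PCDHB2 and JUP among them, lie at the floor in sPTK7 cells. Such members could hardly read higher there. Beside CDH11, PCDHB2, a clustered protocadherin, was called lower, undetected in sPTK7 cells against 446 in cPTK7/622-1070 cells and 456 in HT1080 cells. AJAP1, which sits at adherens junctions, was 5.61-fold lower (73.7 against 413), and its other probes were 10.1-fold and 3.57-fold apart the same way. JUP, plakoglobin, reached 2-fold only as a bound, and its other probes pointed the opposite way. CDH2, the gene of N-cadherin, read 10111 in sPTK7 cells against 6071 in cPTK7/622-1070 cells and was not called.

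**Figure D3:**
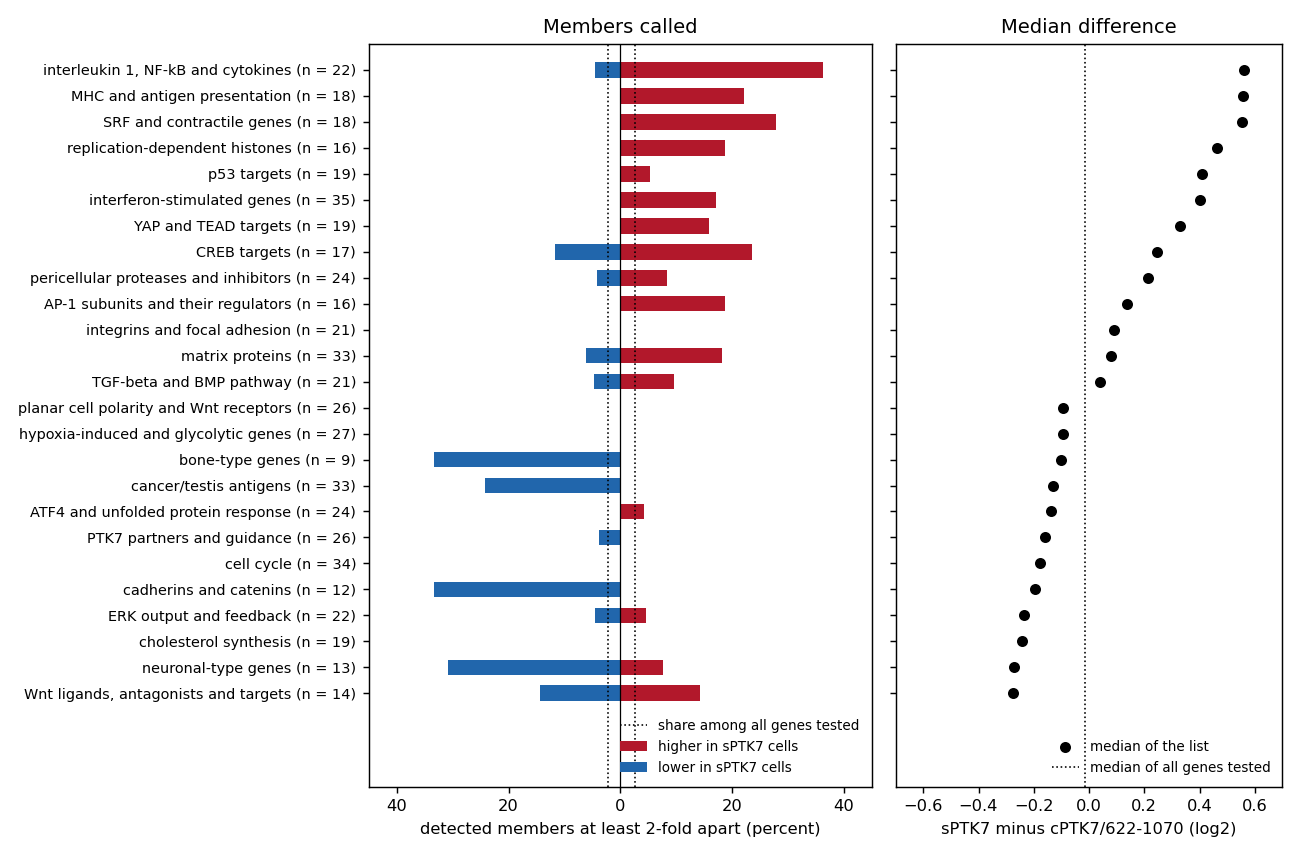
For 25 gene lists, ordered from the highest median at the top, the left panel shows the percent of detected members at least 2-fold higher (red, to the right) or lower (blue, to the left) in sPTK7 cells, with dotted lines at 2.57% and 2.18%, the shares among all genes. The right panel shows the median log2 difference of sPTK7 minus cPTK7/622-1070 cells, which ran to 0.56 for the cytokine, antigen presentation and contractile lists and to -0.28 for the Wnt list.

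Some genes typical of neurons, bone and germ cells were called lower in sPTK7 cells. Of 13 detected neuronal-type genes, 1 was higher and 4 lower, with DCLK1, a kinase that binds microtubules, undetected in sPTK7 cells against 752 in cPTK7/622-1070 cells and 411 in HT1080 cells, at least 12.7-fold lower. A second probe of DCLK1 was 1.56-fold apart the same way. NEFL, the light neurofilament, was at least 4.13-fold lower (undetected against 246), and the higher member was SCG5, with 1 higher and 2 lower in the authors' normalized table. Of 9 bone-type genes, 3 were lower and none higher, namely RUNX2, the osteoblast transcription factor (68.0 against 221), DLX5, a homeobox gene of bone (undetected against 188), and BMP6, a bone morphogenetic protein (359.8 against 742), and 0 of them in the authors' normalized table. SPP1, the gene of the bone matrix protein osteopontin, was not called, with 362 in sPTK7 cells, 588 in cPTK7/622-1070 cells and 235 in HT1080 cells. Of 33 detected cancer/testis antigens 8 were lower and none higher, but the median was -0.13 and 15 lay above 0. In sPTK7 cells 5 of the bone-type genes and 26 of the cancer/testis antigens were detected, against 8 and 32 in cPTK7/622-1070 cells. Apart from the VCX family and its relative, the lower members were TEX19 (1417 against 3247), MAGEC1, undetected in sPTK7 cells against 145 in cPTK7/622-1070 cells, and MAGEC2, undetected against 122.

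The AP-1 element, searched as TGANTCA, was found in 10.8% of promoters of the genes lower in sPTK7 cells, 5.76% of those higher and 5.45% of all genes tested, and the CRE element, TGACGTCA, in 3.83%, 1.44% and 2.86% of them. The AP-1 shares rest on 31 promoters of lower and 20 of higher genes, the CRE shares on 11 and 5. A gene with several promoters, such as DCLK1, counts more than once. DCLK1 is shown as a lower gene with an AP-1 element in 2 of its 3 promoters, here at chr13:36131890-36132189 on the - strand, with the element in capitals 45 bases before the gene start.
DCLK1: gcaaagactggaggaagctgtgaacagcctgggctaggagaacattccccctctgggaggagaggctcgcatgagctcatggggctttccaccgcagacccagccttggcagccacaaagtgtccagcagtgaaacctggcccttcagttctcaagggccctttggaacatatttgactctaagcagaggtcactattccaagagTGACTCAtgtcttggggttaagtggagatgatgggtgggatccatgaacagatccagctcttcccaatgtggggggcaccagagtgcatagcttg
Among the factors themselves, JUNB was 2.75-fold higher in sPTK7 cells (198 against 72.1), ATF3 2.32-fold (529 against 228) and FOSB at least 2.11-fold (121 against undetected), 3 of 16 AP-1 subunits and regulators with none lower. Of 17 CREB targets 4 were higher and 2 lower, among them EGR1, an early growth response factor, 2.96-fold higher (368 against 124), and PDE4B, which degrades cyclic AMP, 3.04-fold lower (74.0 against 225). JUNB and ATF3 are members of both lists and are counted in each. None of these AP-1 and CREB genes was called in the authors' normalized table.

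ARMCX2 and BEX1, genes of a family cluster on chromosome X, were bright in cPTK7/622-1070 cells and low in sPTK7 cells. ARMCX2 read 327 in sPTK7 cells, 4460 in cPTK7/622-1070 cells and 3620 in HT1080 cells, 13.7-fold lower. BEX1, an adaptor of neurotrophin receptor signaling, read 1211 in sPTK7 cells, 12119 in cPTK7/622-1070 cells and 9358 in HT1080 cells, 10.0-fold lower, while its other probe was 1.21-fold apart. GPRASP2 of the same list was 2.14-fold higher (422 against 197), so that of 17 detected members 1 was higher and 2 were lower. FOXA2, a pioneer transcription factor of endoderm, at least 9.47-fold lower (undetected against 563), and NDN, the imprinted gene of necdin (undetected against 655), were lower too.

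Histone genes that are made in S phase read higher in sPTK7 than in cPTK7/622-1070 cells, 16 of 16 detected above 0 with a median of 0.46. Against HT1080 cells the median of this list was 0.045 in sPTK7 cells and -0.386 in cPTK7/622-1070 cells. As a list it was thus cPTK7/622-1070 cells that lay below the control. Called were H2BC5 (1016 against 352, 2.88-fold), H2AC18 (1497 against 547, 2.74-fold) and H4C8 (190 against 87.4, 2.17-fold), genes with near-identical copies. None of 34 cell cycle genes was called, and their median was -0.18. Of 19 p53 targets FAS, a death receptor gene, was called, 3.63-fold higher (220 against 60.7), and 17 lay above 0, among them CDKN1A, the cell cycle inhibitor p21, with 23188 in sPTK7 cells against 13506 in cPTK7/622-1070 cells. The p53 list had a median of 0.41, and FAS was not called in the authors' normalized table. FAS and ACTA2, of the contractile list, lie beside each other on chromosome 10 with promoters that overlap. Their differences may therefore not be separate.

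In the pathway of PTK7 itself, calls lay mainly among Wnt ligands, antagonists and targets, and none among polarity genes and Wnt receptors. Among all genes tested 4.75% were called. Of 26 detected planar cell polarity genes and Wnt receptors 0 were called, with a median of -0.09 and a highest value of 0.75 on the log2 scale. VANGL2, a core polarity protein that works with PTK7, was undetected in sPTK7 cells and read 104 in cPTK7/622-1070 cells, and ROR1, another receptor pseudokinase of Wnt signaling, read 75.6 in sPTK7 cells against 92.9 in cPTK7/622-1070 cells. Of 26 guidance genes and partners or proteases of PTK7, SEMA4D, a membrane semaphorin, was called at 2.08-fold lower (700 against 1453). Of 14 Wnt ligands, antagonists and targets, WNT5A, a ligand of polarity signaling, was 2.32-fold higher (144 against 62.2) and LGR5, an R-spondin receptor, at least 2.29-fold higher (131 against undetected). WNT7B, a ligand of the beta-catenin branch, was 2.28-fold lower (106 against 242) and DKK1, a secreted antagonist, 2.08-fold lower (119 against 247). Without background correction and in the authors' normalized table, neither SEMA4D nor any of these Wnt genes was called, and the Wnt genes were not called with an offset of 50. WNT5A was lower than in HT1080 cells in both lines, where it read 201. Of 19 cholesterol synthesis genes and 27 hypoxia-induced genes, 0 were called. Of 13 reference genes 0 were called, but 1 lay above 0 and the median was -0.27, with GAPDH at 53971 in sPTK7 cells against 65006 in cPTK7/622-1070 cells.

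The study's own genes of cell migration went both ways. Of 84 detected genes listed there as pro-migratory, 11 were higher and 12 lower, with a median of 0.07 (5 higher and 7 lower in the authors' normalized table), and of 30 listed as anti-migratory, 3 were higher and 2 lower, with a median of 0.10. These lists were drawn up from the arrays used here, and their directions are no independent support. At the edge of 2-fold, KLHDC8B (136 against 67.8) was the nearest higher gene inside, and PGF (515 against 1031) and RHOBTB3 (2105 against 4211) lay just outside.

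Arrays that the comparison did not use gave a further description. Chz cells express a mutant PTK7 that is shed readily, PTK7 cells the full-length protein and cPTK7/726-1070 cells the shorter C-terminal fragment, so Chz and PTK7 cells each carry a recombinant ectodomain that cPTK7/726-1070 cells lack. Of the 306 genes higher in sPTK7 than in cPTK7/622-1070 cells, 101 (33.0%) were at least 2-fold higher in Chz than in cPTK7/726-1070 cells, against 3.93% of all genes tested. Another 10 (3.27%) were at least 2-fold lower, against 3.54% of all. Of the 259 lower genes, 103 (39.8%) were lower in Chz than in cPTK7/726-1070 cells, against 3.54% of all. Another 4 (1.54%) were higher, against 3.93% of all. In PTK7 over cPTK7/726-1070 cells the counts were 74 (24.2%, against 3.21% of all) for the higher genes and 101 (39.0%, against 4.39%) for the lower ones. The other way ran 24 of the higher genes (7.84%, against 4.39% of all) and 14 of the lower (5.41%, against 3.21%). In PTK7 cells the called genes were thus above the share of all genes in both directions. These contrasts share the cPTK7/726-1070 array with each other. In all 3 contrasts 50 genes were higher, among them SCG5, IL1B, IL32, GSPT2, FAS and EGR1, and 65 were lower, among them CDH11, VCX, DCLK1, ARMCX2 and FOXA2. IL1B read 3127 in Chz and 1437 in PTK7 cells against 409 in cPTK7/726-1070 cells, and CDH11 read 255 in Chz cells and was undetected in PTK7 cells against 3877 in cPTK7/726-1070 cells. PDPN was not among them, with no detection in Chz cells, 106 in PTK7 cells and no detection in cPTK7/726-1070 cells. EEF1A2 ran the other way, with 5102 in Chz and 9863 in PTK7 cells against 2601 in cPTK7/726-1070 cells. Also absent from the 50 were the contractile genes TAGLN, ACTA2, MYL9 and ACTG2. So were IFI27, HERC6, IFI44, IFITM1, HLA-B, HLA-C and PSMB8. IFI44 read 1528 in Chz and 282 in PTK7 cells against 899 in cPTK7/726-1070 cells. IFITM1 read 281 in Chz and 62.7 in PTK7 cells against 334 in cPTK7/726-1070 cells.

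**Figure D4:**
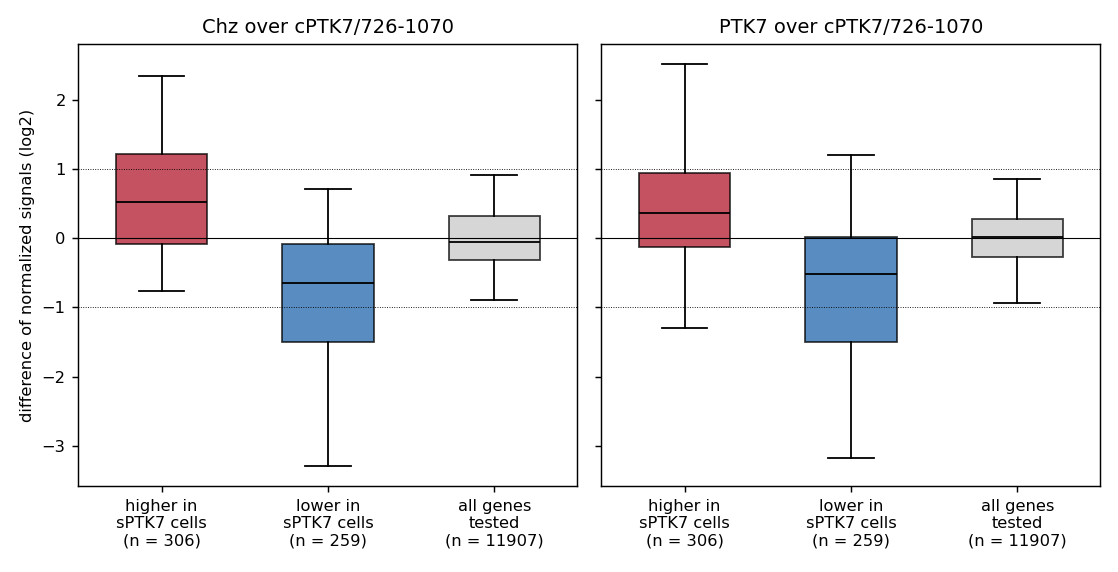
Log2 difference of normalized signals in Chz over cPTK7/726-1070 cells (left) and PTK7 over cPTK7/726-1070 cells (right) for the genes called higher or lower in sPTK7 than in cPTK7/622-1070 cells and for all genes tested; boxes hold the middle 50% with the median, whiskers run over the 5th to 95th percentiles and dotted lines mark 2-fold. The median of the higher genes was 0.51 (left) and 0.36 (right), and that of the lower genes -0.65 and -0.51.

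Other probes of the called genes gave a check within the arrays. Of 159 further detected probes of 134 called genes, 140 (88.1%) had the same sign and 67 (42.1%) were past 2-fold the same way. Probes of 1 gene may read different transcripts.

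Signals differed by chromosome as well, a pattern looked up after the values were seen. Of 161 genes on chromosome 18, 128 (79.5%) read higher in sPTK7 than in cPTK7/622-1070 cells, with a median log2 difference of 0.29. Called higher were 11 of them (6.83%, against 2.57% of all genes tested) and called lower 2 (1.24%, against 2.18%). On chromosome 15 the median was 0.15 with 257 of 369 genes above 0 (69.6%), and on the remaining 21 chromosomes it lay between -0.09 and 0.05. Against HT1080 cells the chromosome 18 median was 0.08 in sPTK7 cells and -0.29 in cPTK7/622-1070 cells. In the lines of the other contrasts it was 0.07 in Chz, -0.46 in PTK7 and -0.29 in cPTK7/726-1070 cells. The chromosome 15 median against HT1080 cells was 0.03 in sPTK7 and -0.14 in cPTK7/622-1070 cells. It was 0.02 in Chz, -0.09 in PTK7 and -0.28 in cPTK7/726-1070 cells. SCG5 and THBS1, both higher in all 3 contrasts, lie on chromosome 15. The difference between sPTK7 and cPTK7/622-1070 cells on chromosome 18 was 0.23 in the authors' normalized table. Without chromosomes 15 and 18, 283 higher and 253 lower genes remained. On chromosome X, 23 of 458 genes were lower (5.02%, against 2.18% of all genes tested) and 9 higher (1.97%, against 2.57%). The VCX family, whose near-identical copies may not be separate differences, TMSB15A, ARMCX2 and BEX1 were among the lower. On chromosome 19 a similar share was lower, 34 of 796 genes (4.27%).

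**Figure D5:**
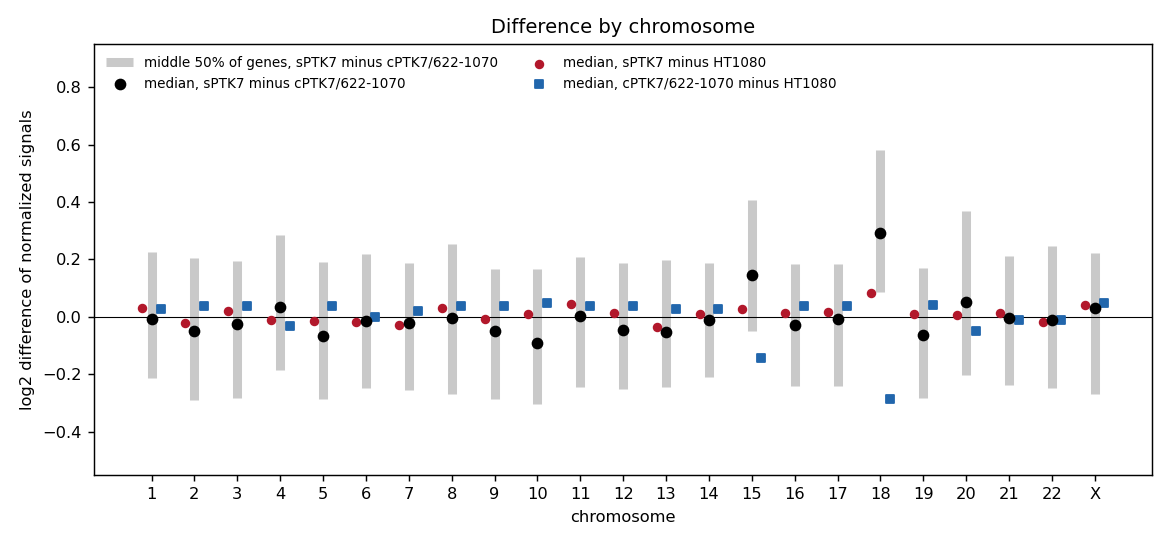
Log2 difference of normalized signals by chromosome, with black points for the median of sPTK7 minus cPTK7/622-1070 cells, grey bars for the middle 50% of genes, red circles for the median of sPTK7 minus HT1080 cells and blue squares for that of cPTK7/622-1070 minus HT1080 cells. Chromosome 18 (median 0.29) and chromosome 15 (0.15) lie above the remaining 21, and the blue squares of both lie below 0.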

How the data were processed

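RNA of sPTK7, cPTK7/622-1070 and HT1080 cells, and of the other lines of the series, was measured on 7 Illumina HumanHT-12 v4 arrays, 1 per line. The deposited non-normalized table gives for each of 47230 probes the intensity as the mean bead signal that the authors read out with a BeadArray Reader, and a detection p-value. The authors' normalized table holds a linear intensity, normalized with GeneSpring GX by a method not given in the sources used here, and served as an alternative. Array medians of the non-normalized signal were 174.2 in sPTK7 cells, 184.7 in cPTK7/622-1070 cells and 180.0 in HT1080 cells.

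The function neqc of limma 3.58.1 (R 4.3.3) corrected the background by a normal-exponential fit, with background taken from detection p and an offset of 16, and the signals were quantile normalized over the 7 arrays and put on the log2 scale. Probe annotation of the platform, with symbols updated through Entrez identifiers to RefSeq GRCh38.p14, gave 1 gene for 30112 probes, several for 8 and none for 17110. The probe brightest on average stood for each gene, and signals under the lowest detected one of an array were raised to it. A call needed 2-fold or more and detection (p under 0.05) on whichever array was brighter. The study's Welch test was not run, since there is 1 array per line. Depth is limited by the number of arrays.

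Genes were named by a rule: PTK7 and genes the study names, the 10 largest differences each way, up to 4 called members per list of 34 lists, up to 8 genes each way on opposite sides of HT1080 cells, and those nearest 2-fold. The genes, lists and rule were chosen with earlier results of these data known. RELB, NFKB2, CCL20, IL11, MX1, MYH9, MAGEC2, TEX19, GABBR2, UCA1, SBSN and list members given as not called were added after their values were seen. Promoters are from RefSeq, for 9517 of the genes tested. Processing was tested on simulated data with changes put only into probes well above background. This test does not cover dim genes, where most calls lie. Python 3.11.15, numpy 2.4.6, pandas 2.3.3 and matplotlib 3.10.9 were used.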

Additional observations from a re-analysis of the deposited data

Results flagged for a closer look

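In 19 genes both lines were at least 2-fold from HT1080 cells on opposite sides. The difference was not tested, since each line has 1 array, and both folds share the HT1080 array. In 6 of them sPTK7 cells were above the control and cPTK7/622-1070 cells below it, SCG5, THBS1, GSPT2, IL32, SLC16A9 and TAGLN. THBS1 was 2.75-fold above HT1080 cells in sPTK7 cells and 2.69-fold below them in cPTK7/622-1070 cells. GSPT2, a translation termination factor, read 1315 in sPTK7 cells, 202 in cPTK7/622-1070 cells and 443 in HT1080 cells, and SLC16A9, a carnitine transporter, 548 in sPTK7 cells, 120.1 in cPTK7/622-1070 cells and 262 in HT1080 cells.

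In 13 genes sPTK7 cells were below the control and cPTK7/622-1070 cells above it, among them CDH11, the VCX family, CA12, NDN, GABBR2, UCA1 and SBSN. GABBR2, a subunit of the GABA B receptor, read 297 in sPTK7 cells, 2510 in cPTK7/622-1070 cells and 652 in HT1080 cells. UCA1, a long noncoding RNA, read 386 in sPTK7 cells, 2900 in cPTK7/622-1070 cells and 1317 in HT1080 cells. ALG1L1P read 132 in sPTK7 cells and 1330 in cPTK7/622-1070 cells by its brightest probe, while its other probe was 1.16-fold apart in the opposite direction.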

How the results depend on the processing

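No paired analysis was possible because each line has 1 array and the arrays carry no replicate numbers. No gene called in the main setting changed sign under any alternative. Against 306 higher and 259 lower genes, the counts were 92 and 87 without background correction, 92 and 88 in the authors' normalized table, 183 and 170 with an offset of 50, 66 and 127 from non-normalized signals with a floor of 200, 928 and 840 at a fold of 1.5, 80 and 102 at a fold of 3, and 420 and 429 without a floor. Upper quartile scaling, normalization over both arrays alone, the mean of all detected probes and a detection p under 0.01 left both counts within 1.5 times. All 179 calls without background correction and all 180 in the authors' table were also called in the main setting. Non-normalized signals moved the median of all genes to -0.15.

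Without background correction, the genes past 2-fold from HT1080 cells in sPTK7 cells alone, in cPTK7/622-1070 cells alone and on opposite sides numbered 50, 3 and 3 among the higher and 50, 7 and 5 among the lower. In the authors' table they numbered 49, 3 and 3 among the higher and 51, 7 and 5 among the lower. Counted by sign at any size, 70.3% of the higher and 81.9% of the lower genes ran the same way in Chz over cPTK7/726-1070 cells (46.1% and 53.9% of all genes tested), and 69.0% and 72.6% in PTK7 over cPTK7/726-1070 cells (53.5% and 46.5%). Of the 84 named genes with a call, 47 kept it without background correction, 46 in the authors' table, 63 with an offset of 50 and 79 with upper quartile scaling. The cause of these differences was not tested. Dim signals limit the comparison, since a fold against an undetected gene is only a bound and background correction widens the folds of genes near background by its construction.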

Other observations

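Genes next to one another on chromosome 11 read higher in sPTK7 cells, a stretch picked after its values were seen. It runs from the beta-globin genes through olfactory receptor genes to a cluster of TRIM genes. Of its 11 genes tested 7 were called higher and 0 lower, against 2.57% and 2.18% of all genes tested. HBE1, the embryonic globin gene, read 9988 in sPTK7 cells, 4447 in cPTK7/622-1070 cells and 2358 in HT1080 cells. OR51B4, an olfactory receptor gene, read 5554 in sPTK7 cells, 1896 in cPTK7/622-1070 cells and 839 in HT1080 cells. OR51B5 was 2.44-fold and OR51I1 2.77-fold higher in sPTK7 than in cPTK7/622-1070 cells, with HT1080 cells lowest for both. TRIM6, a ubiquitin ligase gene, read 670 in sPTK7 cells, 138 in cPTK7/622-1070 cells and 272 in HT1080 cells, and TRIM22 828, 354 and 442 in the same lines, while TRIM5, next to TRIM6, was 1.04-fold apart.

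ACOT1 and ACOT2, neighboring and closely similar acyl-CoA thioesterase genes, read 438 and 483 in sPTK7 cells, against no detection of either in cPTK7/622-1070 cells and 67.1 and 71.3 in HT1080 cells. Among probes with no gene name, 94 were at least 2-fold higher and 62 lower in sPTK7 than in cPTK7/622-1070 cells, of 5543 detected. For genes the counts were 306 and 259 of 11907 tested.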
